A study of Homo sapiens with 4 samples.

Results

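The luminal breast identity genes examined here were 10 genes fixed by name: GATA3, FOXA1, SPDEF, XBP1, AGR2, MLPH, MYB, TBX3, ELF5 and PRLR. They were 10 of 19970 protein-coding genes that have a canonical start site on chromosomes 1 to 22 and X in GENCODE release 44. Membership was set by name and used no peak value, though earlier results of these data were known when the genes were picked. At each gene, peaks of H3K27ac (acetylation of lysine 27 on histone H3) were sought in the 4 deposited peak lists. A gene was called marked when a peak overlapped the interval from 1 kb before to 1 kb after its canonical start site. Peaks that overlapped the gene body or the 100 kb on either side of it were called window peaks.

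The lists came from ChIP-seq (chromatin immunoprecipitation and sequencing) of MDA-MB-231 and Hs578T, with 2 replicates of each. Both are established human triple-negative breast cancer lines of mesenchymal character, grown from tumours without oestrogen receptor, progesterone receptor or HER2 amplification, and each line stands for a single patient's cancer. Cells of every library had received the cytokine TWEAK at 10 ng/ml for 48 h after serum starvation and were then kept without it for 72 h according to the labels, although the study's own text names a longer interval. No untreated library and no library taken during TWEAK treatment was used here, so the values describe the state after wash-off and no effect of TWEAK.

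Luminal cells line the ducts and lobules of the breast, and luminal tumours arise with their gene programme. FOXA1 is a pioneer factor that opens chromatin for the oestrogen receptor, GATA3 is a zinc-finger factor that keeps luminal cells differentiated, and SPDEF, XBP1, MYB and TBX3 are further transcription factors of that programme. AGR2 is a protein disulphide isomerase of the secretory pathway, MLPH (melanophilin) links RAB27A vesicles to myosin, and ELF5 and PRLR belong to the alveolar, milk-forming branch that prolactin drives. H3K27ac lies on active promoters and active enhancers, so a peak marks acetylated chromatin but does not measure RNA or protein, and a distal peak need not act on the gene nearest to it.

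The lists differed in size before any gene was considered. The one labelled MDA-MB-231 replicate 1 had 209 peaks on chromosomes 1 to 22 and X, against 43353 in MDA-MB-231 replicate 2, 46330 in Hs578T replicate 1 and 44920 in Hs578T replicate 2. The latter are called the 3 large lists below, and their values are always given in that order. The small list had no window peak at any of the 10 genes, and only 12 of all protein-coding genes were marked in it (0.0601%), so an empty promoter there carries no information on a single gene. Of all peaks of MDA-MB-231 replicate 2, 94.2% were also found in Hs578T replicate 1, beside 93.4% of those of Hs578T replicate 2, and 0.136% were found in MDA-MB-231 replicate 1. The MDA-MB-231 lists therefore did not group with each other. Each Hs578T list overlapped the other more than it overlapped MDA-MB-231 replicate 2. Of the peaks of Hs578T replicate 1, 88.8% were found in Hs578T replicate 2 and 86.4% in MDA-MB-231 replicate 2. For Hs578T replicate 2 the shares were 93.4% in Hs578T replicate 1 and 87.9% in MDA-MB-231 replicate 2. The 3 large lists covered 81.8, 90.7 and 83.9 Mb, and the part of list size in these shares was not tested. Whether a library failed or carries the wrong label was not tested, so every value of MDA-MB-231 replicate 2, and every comparison across lines, holds for the list that bears that label and may not describe the line. No test between lines was made, because 0.333 is the smallest two-sided p-value that an exact permutation test of 2 lists against 2 can reach. Read depth is unknown, and fold enrichment (the peak's signal over the local background of its own library) was compared between lists only by its percentile among the peaks of the same list.

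Exactly the same 5 genes were marked in each of the 3 large lists: SPDEF, XBP1, AGR2, MLPH and MYB. GATA3, TBX3, ELF5 and PRLR were not marked in any list, but had window peaks in each large list. FOXA1 had neither. The 5 of 10 marked genes stand beside 58.1%, 58.2% and 56.4% of all protein-coding genes marked in the 3 large lists, so the members' count was near the background. Any window peak was found at 9 of the 10 genes in each large list, beside 91.7%, 91.9% and 91.7% of all protein-coding genes. The 4 genes with window peaks alone stand beside 33.6%, 33.7% and 35.3% of all genes with that arrangement. As a mean over the lists of a line, marked members numbered 5 ± 0 in Hs578T (SD, n = 2) and 2.5 ± 3.54 in MDA-MB-231 (SD, n = 2), the latter being 5 without replicate 1 and 0 without replicate 2. The pattern of the marked members, present in the 3 large lists and absent from the small one, was shared by 11103 protein-coding genes (55.6%), and absence from all 4 lists was shared by 8120 (40.7%).

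**Figure D1:**
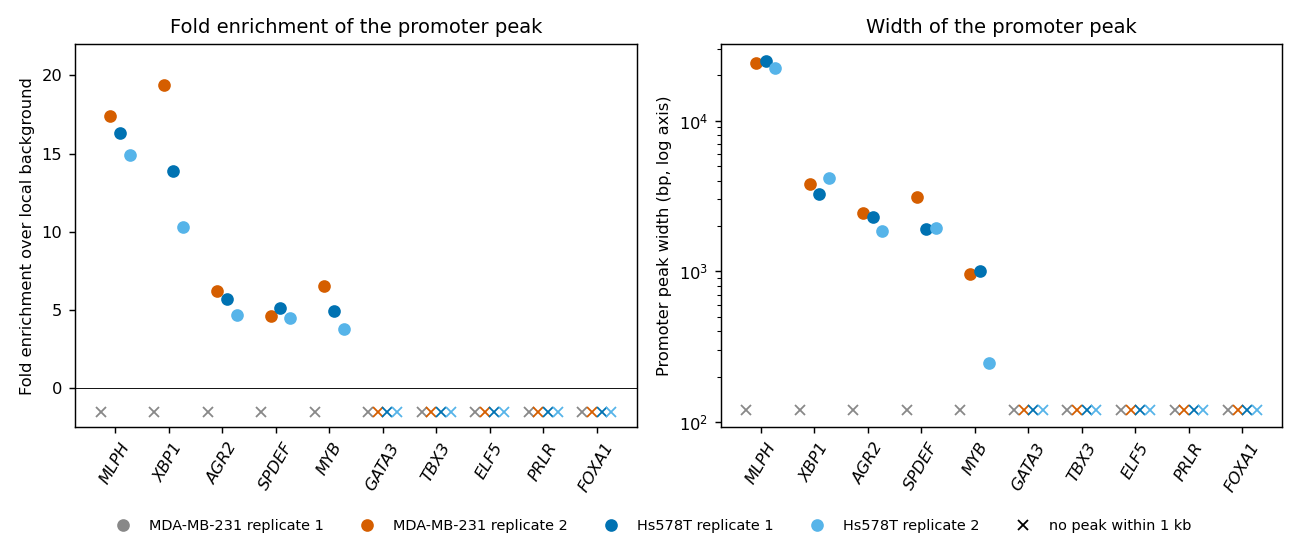
Fold enrichment over local background (left, linear axis) and width in bp (right, log axis) of the promoter peak of each gene in each of the 4 lists, 1 point per list, with crosses for lists that had no peak within 1 kb of the start site (crosses carry no value). MLPH peaks were between 22443 and 24697 bp wide, GATA3, TBX3, ELF5, PRLR and FOXA1 had crosses only, and MDA-MB-231 replicate 1 had crosses at every gene.

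Among the marked genes, MLPH carried the widest promoter peak. MLPH (ENSG00000115648.14) lies on the plus strand of chromosome 2, from 237485428 to 237555322 in hg38, with its canonical start at 237487251. Its promoter peak measured 23987, 24697 and 22443 bp, ran across the start and ended 18841, 19605 and 17453 bp into the gene, and ranked 26th, 34th and 38th by width in the 3 large lists. Fold enrichment of that peak was 17.4, 16.3 and 14.9, at percentiles 92.6, 92.6 and 94 of the peaks of each list. All 3 lists thus held MLPH among their widest peaks. The RefSeq promoter of MLPH (GRCh38.p14, chr2:237487001-237487300, plus strand, 250 bases before the start and 50 after it) lay wholly under this peak in each large list. It is shown because it is the CpG-rich kind of promoter, with its 34 CpG dinucleotides in capitals.
MLPH promoter: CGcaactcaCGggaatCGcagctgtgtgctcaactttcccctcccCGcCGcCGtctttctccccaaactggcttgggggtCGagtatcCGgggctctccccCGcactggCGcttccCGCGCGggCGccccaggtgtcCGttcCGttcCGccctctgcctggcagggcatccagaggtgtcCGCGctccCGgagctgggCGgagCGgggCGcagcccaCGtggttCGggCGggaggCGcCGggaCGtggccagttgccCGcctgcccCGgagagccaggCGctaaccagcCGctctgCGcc

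The acetylated MLPH region did not end with the promoter peak. The window held 13, 14 and 12 peaks, which covered 16.9%, 18.2% and 17% of its bases, at percentiles 96.1, 95.8 and 96.1 of all protein-coding genes. The strongest window peak was not the promoter peak but one of 4061, 3508 and 3665 bp that ended about 10 kb before the start. Its fold enrichment was 29.2, 25.7 and 19, at percentiles 99.1, 98.5 and 97.4. Further peaks about 21 kb, 26 kb and 51 kb before the start had fold enrichments between 9.71 and 17.1. The promoter of the neighbour COL6A3, a collagen gene, lay in the same window and was not marked in any list. The COL6A3 start, and not that of MLPH, was the protein-coding start nearest to the peak at about 51 kb. The promoter of RAB17, another neighbour, was marked in MDA-MB-231 replicate 2 alone, by a weak peak with a fold enrichment of 3.1.

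XBP1 had the promoter peak of highest fold enrichment among the 10 genes in MDA-MB-231 replicate 2. XBP1 (ENSG00000100219.17, chromosome 22, 28794555 to 28800597, minus strand, start at 28800569) encodes the transcription factor that the kinase-nuclease IRE1 activates by splicing its mRNA under endoplasmic reticulum stress. Fold enrichment at its promoter was 19.4, 13.9 and 10.3, at percentiles 94.8, 88.9 and 84.5, and the peak was 3812, 3233 and 4175 bp wide. The peak was strong in each large list, with its percentile highest in MDA-MB-231 replicate 2 and lowest in Hs578T replicate 2. The window held 5 peaks in each large list, and 3 of the other 4 lay on promoters of neighbours, a peak shared by CHEK2 and HSCB, one at CCDC117 and one at ZNRF3. The remaining peak, 6095, 5931 and 5454 bp wide, began about 85 kb downstream of the XBP1 start and had fold enrichments of 8.98, 6.67 and 6.69. The protein-coding start nearest to it was that of CHEK2, 26688, 26597 and 26958 bp away. The 10 listed genes of the unfolded protein response around XBP1, among them the sensors ERN1 (which encodes IRE1) and ATF6 and the chaperone HSPA5, were marked in all 3 large lists, 10 of 10 in each beside 58.1%, 58.2% and 56.4% of all protein-coding genes, with median fold enrichments of 12.3, 10.3 and 8.71.

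AGR2, SPDEF and MYB had promoter peaks of middle or lower rank by fold enrichment. AGR2 (ENSG00000106541.12, chromosome 7, 16791811 to 16833433, minus strand, start at 16804999) had fold enrichments of 6.19, 5.69 and 4.66 at its promoter, at percentiles 55, 55.4 and 47.6, and widths of 2454, 2280 and 1851 bp. Its RefSeq promoter (GRCh38.p14, chr7:16804950-16805249, minus strand) also lay wholly under the peak in each large list, yet held only 6 CpG dinucleotides, in capitals below. It is printed for the contrast with MLPH, since both were marked.
AGR2 promoter: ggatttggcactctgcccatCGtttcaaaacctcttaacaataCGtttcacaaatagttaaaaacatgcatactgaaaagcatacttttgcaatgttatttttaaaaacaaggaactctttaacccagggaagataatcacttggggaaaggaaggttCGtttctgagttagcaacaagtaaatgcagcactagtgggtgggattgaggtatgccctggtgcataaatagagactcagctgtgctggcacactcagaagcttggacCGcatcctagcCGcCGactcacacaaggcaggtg

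The AGR2 window held 9, 9 and 7 peaks. A second AGR2 peak about 5 kb before the start, inside the longer annotated gene, had fold enrichments of 8.18, 5.72 and 5.51. Peaks about 42 kb and 110 kb before the start reached 6.63, 8.76 and 6.67, and 7.06, 6.39 and 7.31. The promoter of AGR3, the neighbouring paralogue of AGR2, was not marked in any list. Peaks nearest to AGR3 therefore lay in the AGR2 window without touching either start site.

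SPDEF (ENSG00000124664.11, chromosome 6, 34537802 to 34556333, minus strand, start at 34556329) is an ETS-family factor of secretory epithelium. Its promoter peak was among the weaker ones, with fold enrichments of 4.59, 5.14 and 4.5 at percentiles 38.5, 50.2 and 45.4, and widths of 3119, 1901 and 1948 bp. The window held 9 peaks in each large list, and all 9 regions were common to the 3 lists. Several were stronger than the promoter. A peak that ended about 3 kb before the start had fold enrichments of 11.1, 11.4 and 10.3, and one about 73 kb before it had 14.4, 12.7 and 11.3. The strongest, about 100 kb before the start, had 18.5, 13.3 and 13.2, at percentiles 94, 87.7 and 91.5. For both of these far peaks the nearest protein-coding start site was that of ILRUN.

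MYB (ENSG00000118513.20, chromosome 6, 135181308 to 135219173, plus strand, start at 135181308), a proto-oncogene that the oestrogen receptor is known to switch on in luminal tumours, had the narrowest promoter peak. Its width was 954, 998 and 245 bp and its fold enrichment 6.53, 4.93 and 3.82, at percentiles 57.5, 47.9 and 33.9. In Hs578T replicate 2 the peak ended 236 bp before the start site instead of crossing it. MYB had only 1 other window peak in each large list, about 71 kb after the start, with fold enrichments of 4.33, 2.66 and 2.69. Peaks covered 0.65%, 0.655% and 0.468% of its window, at percentiles 14.3, 13.6 and 12.3 of all genes. MYB was thus marked at its promoter within a sparsely acetylated neighbourhood.

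When only the strongest 50% of each list by score was kept, 4, 3 and 2 of the 10 genes stayed marked. XBP1 and MLPH kept their promoter peak in all 3 large lists, AGR2 kept it in MDA-MB-231 replicate 2 and Hs578T replicate 1, MYB in MDA-MB-231 replicate 2 alone, and SPDEF in none. The share of all protein-coding genes marked was then 44.9%, 45.9% and 42.3%.

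**Figure D2:**
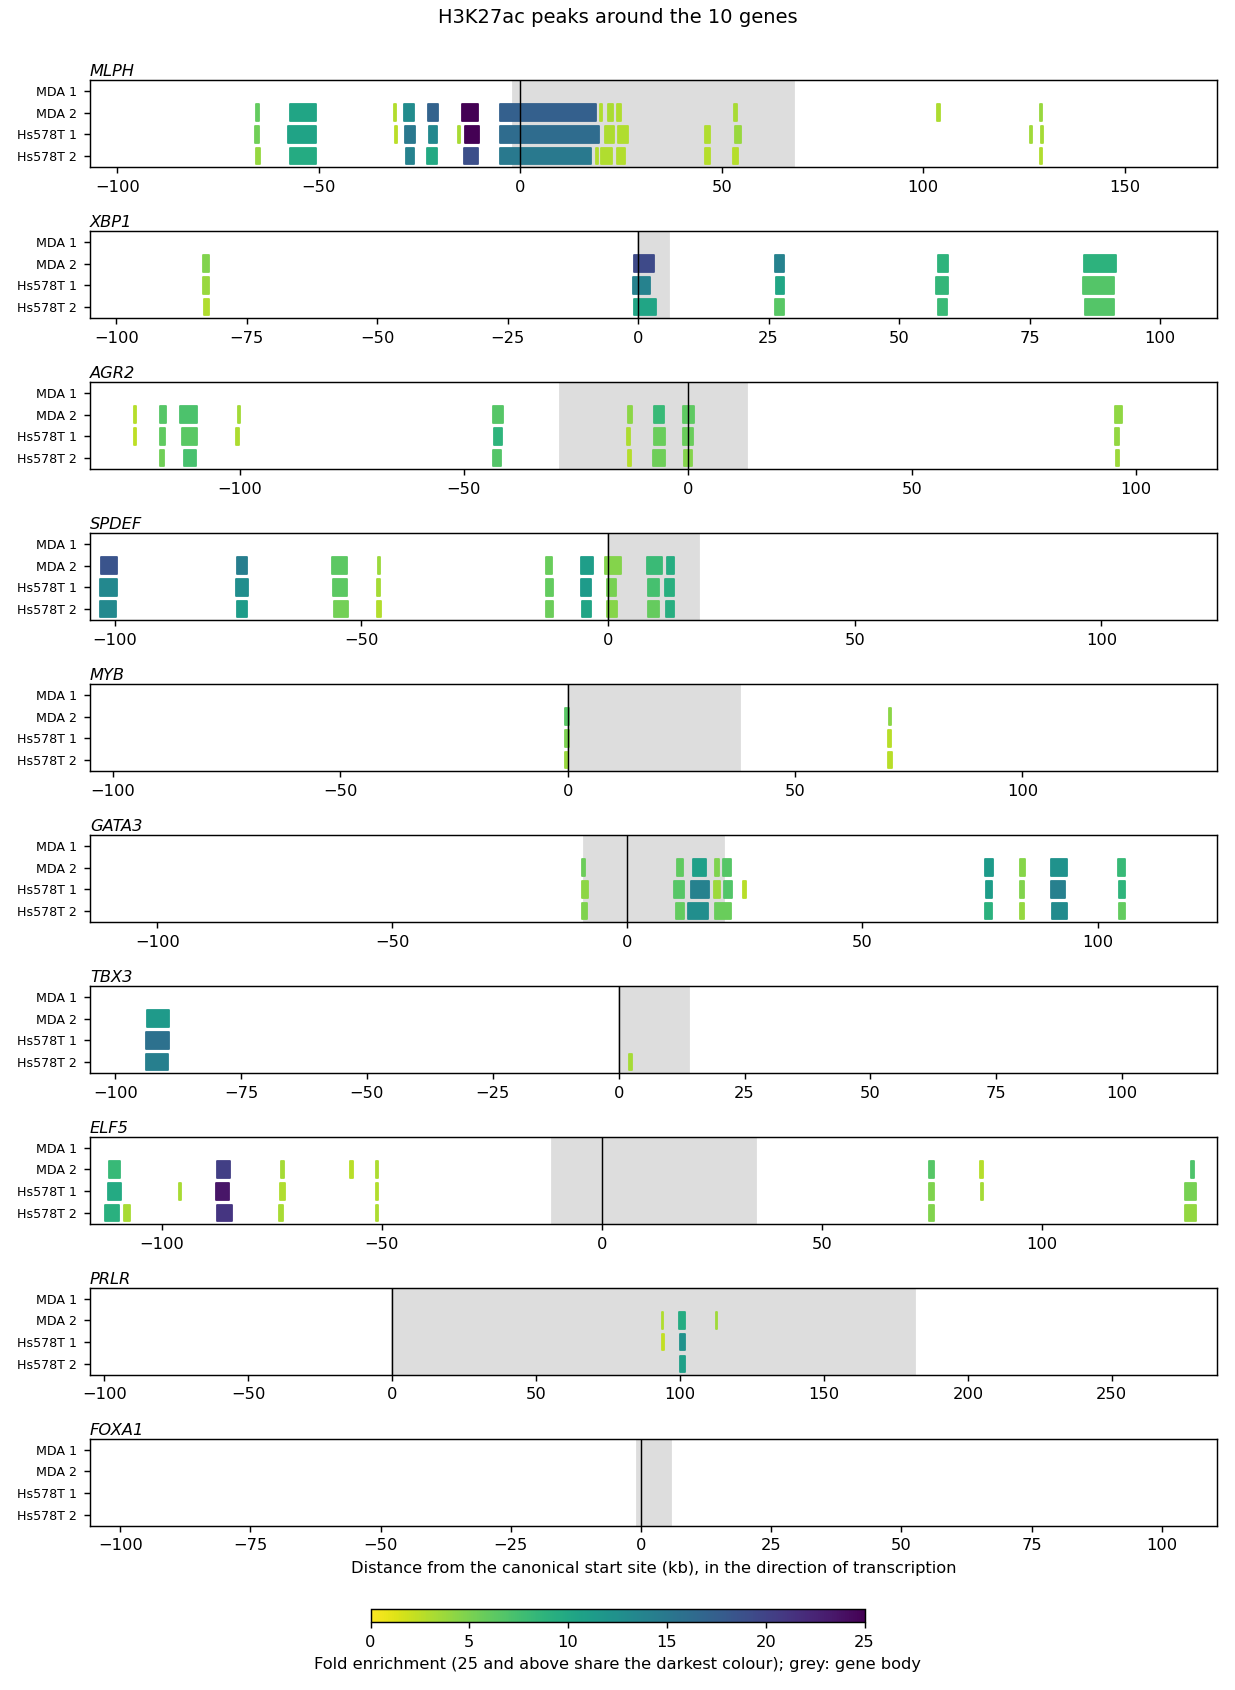
Positions of the window peaks at each gene in the 4 lists, drawn to scale on a linear axis of kb from the canonical start site (vertical line) in the direction of transcription. Grey shows the annotated gene body, each bar is 1 peak (bars under 0.5 kb are widened to 0.5 kb), and darker colour is higher fold enrichment, with 25 and above sharing the darkest colour. The rows of the 3 large lists look alike, GATA3, TBX3, ELF5 and PRLR have bars away from the line, and there is no bar at FOXA1 or in the top row, MDA-MB-231 replicate 1.

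GATA3 was the unmarked gene with the most acetylation around it. GATA3 (ENSG00000107485.18, chromosome 10, 8045378 to 8075198, plus strand) has its canonical start at 8054688, and the nearest peak lay 8946, 8300 and 8567 bp away. The window nevertheless held 9, 10 and 8 peaks that covered 6.28%, 7.76% and 7.65% of it, at percentiles 67.1, 71 and 73.6 of all protein-coding genes. Inside the gene, a peak 2629, 3886 and 4295 bp wide that began 12903 to 14054 bp after the start had fold enrichments of 10.9, 14.1 and 12.7. Downstream of the gene, the strongest peak lay about 90 kb after the start, with fold enrichments of 12.3, 14.2 and 13 at percentiles 83.2, 89.3 and 91. It was accompanied by peaks about 76 kb, 84 kb and 104 kb after the start in each large list. No other protein-coding start site lies in this window.

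The peak nearest to the canonical GATA3 start sat on another start site. RefSeq annotates an upstream GATA3 start at 8045333, before the canonical one, and a peak of 682, 1454 and 1145 bp with fold enrichments of 5.6, 4.29 and 4.88 covered its whole 300-base promoter in the 3 large lists. With RefSeq start sites included, an alternative chosen after this peak was seen, GATA3 counted as marked, and so did PRLR in MDA-MB-231 replicate 2, so that 7, 6 and 6 of the 10 genes were marked, against 59.2%, 59.5% and 57.6% of all genes. This upstream GATA3 promoter and the canonical one are printed (GRCh38.p14, plus strand, CpG in capitals). The upstream one, at chr10:8045083-8045382, lay under the peak. The canonical one, at chr10:8054438-8054737, had no peak within 1 kb. RefSeq annotates further GATA3 starts, whose promoters are not printed.
GATA3 upstream promoter: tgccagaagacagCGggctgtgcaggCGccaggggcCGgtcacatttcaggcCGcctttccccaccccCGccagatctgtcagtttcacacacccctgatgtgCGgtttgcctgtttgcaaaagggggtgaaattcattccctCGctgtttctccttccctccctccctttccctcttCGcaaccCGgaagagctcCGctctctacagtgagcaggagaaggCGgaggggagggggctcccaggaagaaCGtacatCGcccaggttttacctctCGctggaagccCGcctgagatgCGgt
GATA3 canonical promoter: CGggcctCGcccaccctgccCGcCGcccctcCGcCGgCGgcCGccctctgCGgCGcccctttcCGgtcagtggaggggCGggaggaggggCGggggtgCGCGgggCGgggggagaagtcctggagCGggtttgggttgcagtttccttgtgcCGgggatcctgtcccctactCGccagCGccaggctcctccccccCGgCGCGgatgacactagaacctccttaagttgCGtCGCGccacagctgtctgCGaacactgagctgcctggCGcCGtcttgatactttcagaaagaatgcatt
The upstream sequence held 16 CpG dinucleotides and the canonical one 29, so the unmarked promoter was the richer of this pair. The other RefSeq GATA3 promoters, with starts at 8049854, 8051236, 8053641 and 8060457, held 18, 16, 36 and 5.

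FOXA1 was the only one of the 10 genes without a window peak in the large lists. FOXA1 (ENSG00000129514.8, chromosome 14, 37589552 to 37596059, minus strand, start at 37595249) had its nearest peak 396958, 396841 and 397014 bp away. Among genes without a promoter peak, that distance was at percentiles 94.4, 94.6 and 94.6. The stretch without a peak around it spanned 1723430, 899808 and 945136 bp. Empty windows in all 3 large lists were found at 1497 protein-coding genes (7.5%), so FOXA1 shared this state with a small fraction of genes. TTC6, whose start site lies in the same window, was also unmarked. The FOXA1 promoter (GRCh38.p14, chr14:37595200-37595499, minus strand) is printed because it held 34 CpG dinucleotides, the number that the marked MLPH promoter held, and had no peak.
FOXA1 promoter: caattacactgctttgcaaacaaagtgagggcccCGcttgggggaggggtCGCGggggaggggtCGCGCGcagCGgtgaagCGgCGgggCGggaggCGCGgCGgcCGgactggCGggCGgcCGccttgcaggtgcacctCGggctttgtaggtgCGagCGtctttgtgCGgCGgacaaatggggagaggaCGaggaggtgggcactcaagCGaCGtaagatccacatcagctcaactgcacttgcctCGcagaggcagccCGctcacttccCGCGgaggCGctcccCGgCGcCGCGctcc

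CpG content was described for those RefSeq promoters whose start lies within 1 kb of the canonical GENCODE start of their gene, with marked or unmarked taken from that canonical start. The median was 27 CpG in 300 bases for 10764 such promoters marked in all 3 large lists and 9 for 6242 marked in none of them. Other RefSeq promoters, the upstream GATA3 one included, stayed out of these medians. The 10 genes did not all follow this description. XBP1, MYB and MLPH were marked with 40, 35 and 34 CpG, SPDEF and AGR2 were marked with 8 and 6, FOXA1 and GATA3 were unmarked with 34 and 29 at the canonical start, and PRLR was unmarked with 9. For ELF5 the RefSeq start lies 2070 bp from the canonical one, and its promoter held 2 CpG. RefSeq promoters were found for 9 of the 10 genes, TBX3 being the exception.

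**Figure D3:**
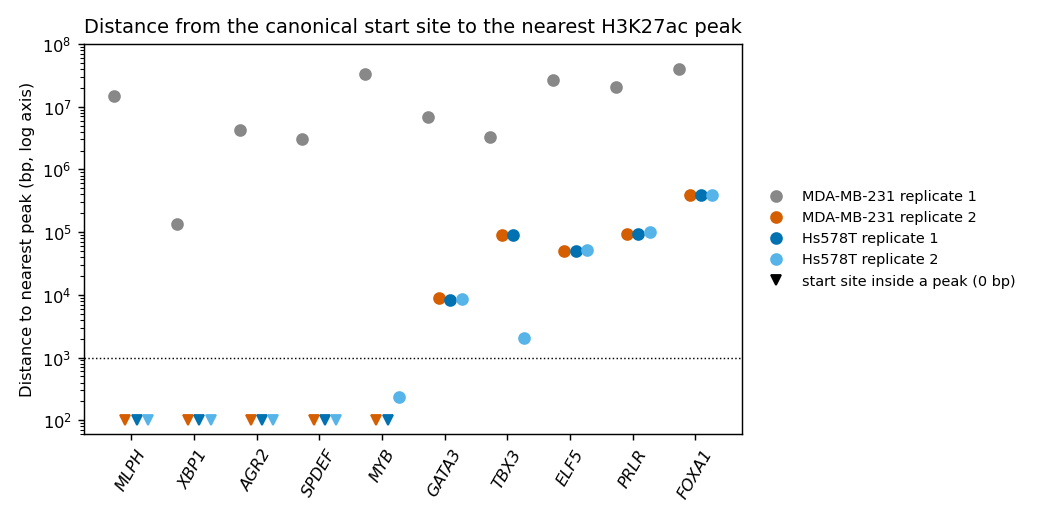
Distance in bp (log axis) from the canonical start site of each gene to the nearest H3K27ac peak in each of the 4 lists, with triangles at the foot for start sites inside a peak and a dotted line at 1 kb. In the 3 large lists the distance was 8300 to 8946 bp at GATA3 and 396841 to 397014 bp at FOXA1, and TBX3 in Hs578T replicate 2 stood apart at 2048 bp.

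TBX3, a T-box repressor required for mammary gland formation, had a single strong distal peak. TBX3 (ENSG00000135111.16) lies on the minus strand of chromosome 12, from 114670255 to 114684175, with its start at 114684175. A peak of 4509, 4561 and 4426 bp that ended about 89 kb before the start was found in the 3 large lists and had fold enrichments of 11.5, 15.8 and 14.3 at percentiles 81, 91.8 and 93.2. In Hs578T replicate 2 alone, a second peak of 488 bp with a fold enrichment of 3.37 lay 2048 bp after the start, inside the gene. The start site of TBX3-AS1, a gene that is not protein-coding, lay under that peak or within 1 kb of it. With a promoter window of 2.5 kb in place of 1 kb, TBX3 would be marked in that list only. No other protein-coding start site lies in the TBX3 window. The distal peak held the AP-1 motif (TGACTCA, or TGAGTCA on the other strand), the binding sequence of FOS and JUN dimers, and a stretch with 60 bases on either side of it is printed as a view of this region, with the motif in capitals (hg38, chr12:114774364-114774490, plus strand).
TBX3 distal peak: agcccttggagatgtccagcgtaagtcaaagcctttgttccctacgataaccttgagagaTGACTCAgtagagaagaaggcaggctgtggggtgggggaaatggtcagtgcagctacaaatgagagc

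ELF5, an ETS factor that directs alveolar differentiation, had no peak in its body and a strong one far upstream. ELF5 (ENSG00000135374.11, chromosome 11, 34478791 to 34525193, minus strand, start at 34513794) had 8, 8 and 7 window peaks, and the nearest lay 50936, 50937 and 51013 bp from the start. The strongest was 2996, 3007 and 3375 bp wide and ended 84564, 84764 and 84031 bp before the start. Its fold enrichment of 20.4, 23.6 and 21.1, at percentiles 95.6, 97.8 and 98.3, was the highest of any peak at the 5 unmarked genes. The start site nearest to that peak was not ELF5 but EHF, which encodes a related ETS factor of epithelial cells. The EHF promoter itself was marked in Hs578T replicate 2 only, by a peak with a fold enrichment of 3.24. A stronger peak lay 2203, 2038 and 2455 bp from the EHF start in the 3 large lists, outside the 1 kb limit. Its fold enrichments were 8.18, 9.82 and 9.1. CAT (catalase), on the other side of ELF5, was marked in all 3 large lists with fold enrichments of 6.63, 4.83 and 4.74. The far peak held AGATAA, the core recognised by GATA factors, on both strands, in capitals in the stretch printed here (hg38, chr11:34600399-34600524, plus strand).
ELF5 distal peak: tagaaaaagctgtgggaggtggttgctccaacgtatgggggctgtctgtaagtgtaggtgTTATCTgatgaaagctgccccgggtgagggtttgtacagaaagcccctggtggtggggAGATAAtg

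PRLR, the receptor through which prolactin activates JAK2 and STAT5, had peaks only deep inside its gene. PRLR (ENSG00000113494.17, chromosome 5, 35048756 to 35230487, minus strand) spans 181732 bp from its start at 35230487. It held 3, 2 and 1 peaks, which covered 0.684%, 0.71% and 0.461% of the window, at percentiles 14.7, 14.1 and 12.2. The peak common to the 3 large lists began about 100 kb after the start, with widths of 1965, 2022 and 1760 bp and fold enrichments of 9.6, 12.4 and 10.9, at percentiles 74, 85.8 and 86.2. A weak peak about 94 kb after the start, with fold enrichments of 2.94 and 2.34, was listed in MDA-MB-231 replicate 2 and Hs578T replicate 1. A peak of 216 bp with a fold enrichment of 3.56, listed in MDA-MB-231 replicate 2 alone, lay beside an alternative PRLR start at 35118122, and PRLR counted as marked in that list when all basic GENCODE transcripts were used. The common peak held the AP-1 motif at more than 1 place, and both printed stretches come from it (hg38, plus strand, motif in capitals), the first at chr5:35128944-35129070 and the other at chr5:35129364-35129490.
PRLR distal peak, site 1: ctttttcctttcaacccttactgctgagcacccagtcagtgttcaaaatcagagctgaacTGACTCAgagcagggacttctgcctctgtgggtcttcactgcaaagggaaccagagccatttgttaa
PRLR distal peak, site 2: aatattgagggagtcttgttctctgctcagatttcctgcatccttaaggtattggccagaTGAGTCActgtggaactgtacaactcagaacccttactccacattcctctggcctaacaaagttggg

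Of the 8 listed genes of prolactin signalling, 5, 4 and 4 were marked in the 3 large lists, near the 58.1%, 58.2% and 56.4% of all protein-coding genes. JAK2, SOCS2, STAT5A and STAT5B were marked in each of them, and CISH, a feedback inhibitor, in MDA-MB-231 replicate 2 alone. The hormone gene PRL, the milk protein gene CSN2 and the growth hormone receptor gene GHR were not marked.

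**Figure D4:**
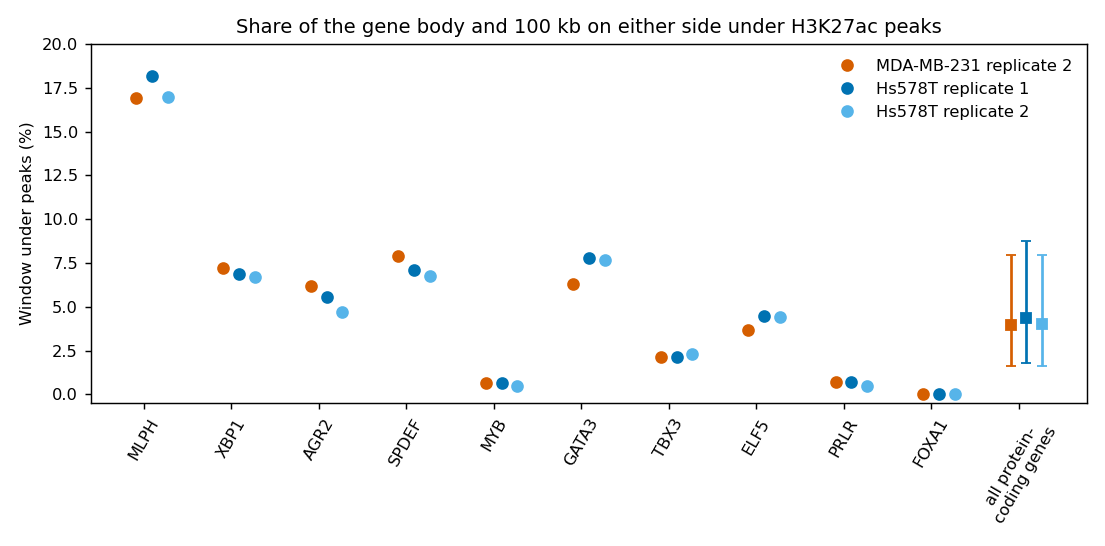
Percentage of each gene's window (gene body and 100 kb on either side) under H3K27ac peaks in the 3 large lists, 1 point per list, with the median (square) and the quartiles (bars) over all protein-coding genes at the right. MLPH stood at 16.9% to 18.2%, MYB, PRLR and FOXA1 lay under the lower quartile, and MDA-MB-231 replicate 1, at 0% for every gene, is not drawn.

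Over the 10 windows together there were 59, 60 and 53 peaks, and the small list had 0. They covered 124695, 130044 and 121935 bp. Of the peaks, 5 in each large list lay at the marked promoters, 16, 14 and 15 elsewhere in the bodies of the 10 genes, 5, 4 and 5 on promoters of other protein-coding genes, and 33, 37 and 28 outside the gene. The members' median coverage of the window was 4.94%, 5.03% and 4.54%, beside 3.96%, 4.37% and 4% over all protein-coding genes. The order of the genes by coverage had MLPH first and FOXA1 last in each list, with MYB and PRLR next to last and closer to each other than to any other gene with peaks.

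The positions of the window peaks were largely shared by the large lists. Merged over the lists they formed 64 regions, of which 49 had a peak in all 3 large lists, 5 in MDA-MB-231 replicate 2 and Hs578T replicate 1, and 1 in both Hs578T lists alone. The remaining 9 were listed once. Every region of SPDEF, XBP1 and MYB was common to the 3 lists, while MLPH had 5 and ELF5 had 4 that were missing from at least 1. Of the window peaks of MDA-MB-231 replicate 2, 55 of 59 were also found in Hs578T replicate 1 (93.2%, 95% Wilson interval 83.8 to 97.3%) and 51 in Hs578T replicate 2 (86.4%, 75.5 to 93%). Between the Hs578T lists, 51 of 53 window peaks of replicate 2 were found in replicate 1 (96.2%, 87.2 to 99%). In the other direction, 55 of 60 window peaks of Hs578T replicate 1 were found in MDA-MB-231 replicate 2 (91.7%, 81.9 to 96.4%) and 51 in Hs578T replicate 2 (85%, 73.9 to 91.9%). For Hs578T replicate 2, 50 of 53 window peaks were found in MDA-MB-231 replicate 2 (94.3%, 84.6 to 98.1%). In both directions the intervals for sharing across the line labels and for sharing between the Hs578T replicates overlap. Over whole lists the same shares, in the same order, were 94.2%, 91.2%, 93.4%, 86.4%, 88.8% and 87.9%. Each whole Hs578T list thus shared more of its peaks with the other Hs578T list than with MDA-MB-231 replicate 2. MDA-MB-231 replicate 2 covered the fewest bases of the 3 large lists, and the part of list size was not tested.

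Of the 3 motifs searched over the whole width of distal peaks, AP-1 had a higher share than in the lists as a whole, AGATAA the same or a lower one, and the forkhead sequence a lower one in each large list, all within counting error. Of peaks over 2.5 kb from every protein-coding start site, the AP-1 motif was found in 25 of 48, 27 of 50 and 26 of 41 window peaks, or 52.1% (95% Wilson interval 38.3 to 65.5%), 54% (40.4 to 67%) and 63.4% (48.1 to 76.4%). In all such peaks of the 3 large lists its share was 51.8%, 51% and 50.3%, inside each interval. AGATAA, on either strand, was found in 43.8%, 50% and 53.7% of the window peaks and in 53.6%, 54.1% and 53.7% of all. TGTTTAC, a sequence that forkhead factors such as FOXA1 recognise, was found on either strand in 12.5% (5.86 to 24.7%), 14% (6.95 to 26.2%) and 14.6% (6.88 to 28.4%), beside 23.1%, 23.7% and 23.2% of all, and each interval includes the value of its list. Window peaks of Hs578T replicate 2 were wider, with a median of 1766 bp against 1226 bp for all, and the part of width in the motif count was not tested. In the central 500 bp of each peak, AP-1 was found in 22.9%, 26% and 34.1% of window peaks, beside 31.3%, 30.1% and 29.9% of all. There its share was above that of all peaks in Hs578T replicate 2 only. Among 300-base promoters of protein-coding genes, 4.03% held AP-1, 7.8% AGATAA and 2.87% TGTTTAC. Of the printed promoters, AGR2 held AGATAA once, and neither GATA3 promoter nor those of FOXA1 and MLPH held any of these 3 motifs. A match is a run of letters and not evidence of binding, and the intervals cover counting error only.

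Other gene lists placed the 10 genes in context. Of 20 further luminal genes, 11, 11 and 10 were marked, with median fold enrichments of 10.3, 10.4 and 8.44. Keratin genes KRT8, KRT18 and KRT19 and the genes ERBB3, TFF1 and TFF3 were among those marked, while the hormone receptor genes ESR1 and PGR and the adhesion gene CDH1 were unmarked in every list. Of 8 mesenchymal genes, 7, 8 and 7 were marked. Of 8 basal epithelial genes, 4 were marked in each large list, among them EGFR, FOXC1 and TP63, and the keratin genes KRT5, KRT14, KRT17 and KRT6B were not. Of 8 markers of blood and vessel cells, 2, 2 and 1 were marked, CD68 in each large list and PECAM1 in MDA-MB-231 replicate 2 and Hs578T replicate 1, while the defining genes PTPRC, CD3E, VWF and CDH5 had no promoter peak. Of all protein-coding genes, 58.1%, 58.2% and 56.4% were marked in the 3 large lists. For the 10 genes, the 20 further luminal genes and the 8 basal epithelial genes, the counts lie near these shares. Nothing particular to luminal genes is read from them. The counts of the mesenchymal genes lie above these shares and those of the blood and vessel markers below, and neither difference was tested.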

How the data were processed

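Each library was H3K27ac ChIP-seq of a cell line after TWEAK and wash-off. The authors trimmed reads with Trimmomatic, mapped them to hg38 with Bowtie2, called peaks per library with MACS2 against input, and removed blacklisted regions. Versions and MACS2 settings are not given in the sources used here, and read depth is unknown. The 9 columns of each deposited list have the form of broad peak output. They hold coordinates, a deposited score (10 times −log10 q), fold enrichment, a ratio to local background, and −log10 p-values and q-values as deposited. Peaks called per library move with depth and with the input.

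Genes came from GENCODE release 44, with the Ensembl canonical start. Python 3.11.15, pandas 2.3.3, numpy 2.4.6, scipy 1.17.1 and matplotlib 3.10.9 were used, and an overlap of 1 bp counted. Promoter sequences came from RefSeq (GRCh38.p14), and motifs were searched on both strands. Groups followed sample titles. All 10 members are named, other genes only where their start site lies in a member window or as parts of listed groups. Members and gene lists were chosen with earlier results of these data known. The search for promoter peaks and the count of covered bases were tested on simulated peaks, and the other steps were not. Alternatives were the strongest 50% of peaks, a q-value below 0.01, equal numbers of top peaks, other windows and start sites, 50% reciprocal overlap, the central 500 bp for motifs, and leaving out each replicate. RefSeq start sites were added after the data were seen.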

Additional observations from a re-analysis of the deposited data

How the results depend on the processing

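The 12 results gave 83 values under other settings, of which 24 moved and 59 differed from the reported value by less than the spread between lists, its counting interval or 1.5 times a count. Reversals of direction were not looked for. With the strongest 50% of peaks, marked members in Hs578T fell to a mean of 2.5, window peaks to 17.5 in MDA-MB-231 and 32.5 in Hs578T (from 29.5 and 56.5), and covered bases in Hs578T to 102068 (from 125990). The overlap of Hs578T replicate 2 peaks by replicate 1 was then 100%, and the AP-1 share 70.4% in MDA-MB-231 and 73.2% in Hs578T, while 66.9%, 66.5% and 66% of all distal peaks of the 3 large lists held it. In the central 500 bp the AP-1 shares were 22.9% in MDA-MB-231 and 30.1% in Hs578T (26% in replicate 1 and 34.1% in replicate 2), beside 31.3%, 30.1% and 29.9% of all. With q below 0.01, covered bases in Hs578T were 119418. With 50 kb on either side of the gene, window peaks were 18 and 33.5 and covered bases in Hs578T 78782. With 10 kb, they were 11.5, 22.5 and 62844, and members with window peaks alone 1 in MDA-MB-231 and 2.5 in Hs578T (from 2 and 4). Leaving out a replicate gave, in MDA-MB-231, 0 to 5 marked members (from 2.5), 0 to 4 with window peaks alone (from 2) and 0 to 59 window peaks, the lower ends without replicate 2 and the upper without replicate 1. In MDA-MB-231 the lists lay so far apart that a value within their spread is no sign of stability. Covered bases ran from 0 to 124695, and the overlap of Hs578T window peaks by MDA-MB-231, 46.5% over both lists, was 93% without replicate 1 and 0% without replicate 2. Without MDA-MB-231 replicate 2 no AP-1 share could be given for that line, since replicate 1 has no window peak. No paired analysis was possible because no result came from a test between groups. Read numbers were not used, so what depth limits at single weak peaks is unknown.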
